A study of Mus musculus with 4 samples.

Results

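Trpm6 and Trpm7 encode a pair of related magnesium channels, and their transcripts were followed in kidney tubules of mice fed a low or a high magnesium diet. All probes that the platform annotation names Trpm6 or Trpm7 were taken, which gave 1 probe for each gene. Probe sequences were not used here, so the part of each transcript that its probe reads is unknown, and each gene's values rest on that probe. These are 2 of the 21713 genes with a symbol, and 2 of the 39429 probes tested. The tubules came from transgenic mice on the B6D2F2 background in which the parvalbumin promoter drives the fluorescent protein eGFP (PV-eGFP). All mice carried this reporter and were 6 to 8 weeks old at isolation. The low diet held 0.02% magnesium by weight and the high diet 0.48%, each fed for 15 days. Fluorescent tubule fragments were sorted, and many tubules were pooled for each RNA extraction. The reporter selects tubules by the activity of the parvalbumin promoter, and the number of mice behind an RNA sample is not given in the labels. Littermates on opposite diets were hybridised together, so 8 RNA samples made 4 arrays, named here after their high (H) and low (L) sample numbers. Cy5 labelled the low-diet member of 2 pairs, H1/L1 and H7/L7, while in H3/L2 and H8/L8 it labelled the high-diet member.

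TRPM6 and TRPM7 are unusual membrane proteins that join a cation channel to a protein kinase of the alpha-kinase family in 1 chain. TRPM6 lies in the luminal membrane of the distal convoluted tubule (DCT), where it lets filtered magnesium enter the cell, and in the colon. Loss of TRPM6 in humans causes hypomagnesemia with secondary hypocalcemia. TRPM7 is made in nearly all cell types, serves the magnesium and zinc supply of the cell, and can assemble with TRPM6 into mixed channels. The study searched the DCT for candidate genes of magnesium handling.

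The upstream sequences of both genes are shown because both transcripts were higher on the low diet in these data, so a reader can set the start regions side by side. They are the 250 bases before the transcription start that RefSeq gives in build GRCm38.p6, for Trpm6 at chr19:18749480-18749729 on the plus strand and for Trpm7 at chr2:126876262-126876511 on the minus strand. Capitals mark the E-box CACGTG.
Trpm6: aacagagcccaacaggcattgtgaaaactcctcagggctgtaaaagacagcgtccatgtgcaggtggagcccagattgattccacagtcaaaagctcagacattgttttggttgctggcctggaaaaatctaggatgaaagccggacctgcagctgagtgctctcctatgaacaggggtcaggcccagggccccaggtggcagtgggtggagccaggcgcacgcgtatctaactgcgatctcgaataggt
Trpm7: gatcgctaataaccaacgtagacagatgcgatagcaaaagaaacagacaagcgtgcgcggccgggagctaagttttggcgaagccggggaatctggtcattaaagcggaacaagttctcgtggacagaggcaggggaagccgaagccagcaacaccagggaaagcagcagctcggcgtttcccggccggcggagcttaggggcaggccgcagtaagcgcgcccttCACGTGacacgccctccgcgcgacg

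The Trpm7 window held 26 CpG dinucleotides at a G and C content of 60.4%, and the Trpm6 window 7 at 54.4%. As many CpG dinucleotides or more were found in 9.59% of the 32851 start regions of the same length for the Trpm7 count and in 46.3% for the Trpm6 count. The table holds 1 start for each gene, and the annotated Trpm6 gene reaches further upstream than this start. The Trpm7 window held 1 E-box, 25 bases before the start, and the Trpm6 window held 0. An E-box was present in 6.02% of all start regions. On both strands, 0 matches to the cAMP response element TGACGTCA, the GC box GGGCGG, the TATA box TATAAA and the CCAAT box were found in either window. These occurred in 1.55%, 32.74%, 12.37% and 33.85% of all start regions, and each motif was searched by itself with no allowance for mismatches. A match or its lack describes these letters only.

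Before normalization, the Trpm6 spot was brighter in the low-diet sample on all 4 arrays, whichever dye it carried. The mean pixel signal of Trpm6, in scanner units, was 4089 in the low-diet and 1053 in the high-diet sample of H1/L1, and 2544 against 926 in H7/L7. It was 1980 against 1438 in H3/L2 and 3004 against 2704 in H8/L8, where the low-diet sample was in Cy3. The Trpm7 spot was brighter in the Cy5 channel on all 4 arrays. Its signal was 15024 in the low-diet and 4773 in the high-diet sample of H1/L1, and 11241 against 5555 in H7/L7. It was 6218 against 9682 in H3/L2 and 7465 against 11731 in H8/L8, so here the high-diet sample was the brighter one.

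The local background lay between 33 and 42 units at these spots. Each probe was above background in 8 of 8 samples, as were 25638 of the 39429 probes tested. None of the Trpm6 and Trpm7 readings was saturated. The lowest was the Cy3 reading of Trpm6 on H8/L8, whose background-subtracted signal was 56.9 times the background threshold, and the highest the Cy5 reading of Trpm7 on H1/L1 at 1980 times. Between 2.92% and 7.72% of all probes were brighter than the Trpm6 spot in a channel, and between 0.748% and 1.54% were brighter than the Trpm7 spot. Brightness differs between probes for reasons other than transcript number, so it gives no order of the paralogs' transcript levels. From the spread of pixels within a spot, the reading error of the log2 ratio was 0.012 to 0.023 for Trpm6 and 0.018 to 0.025 for Trpm7. These errors cover the reading of 1 spot only and are small beside the spread between pairs given below. With 4 arrays the fit below has 2 residual degrees of freedom, which limits its precision.

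**Figure D1:**
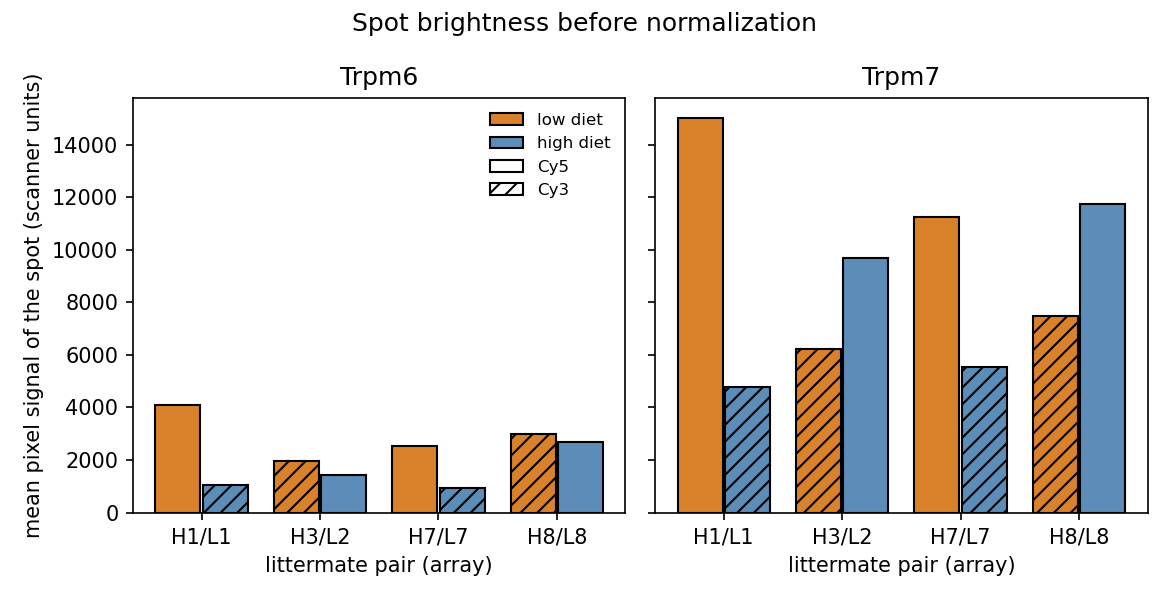
Mean pixel signal of the Trpm6 spot (left) and the Trpm7 spot (right) in scanner units, by littermate pair, with 1 bar per RNA sample, coloured by diet and hatched for Cy3. The Trpm6 bar of the low diet is the taller one in all 4 pairs, while the taller Trpm7 bar is the Cy5 bar in all 4.

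The first comparison asked whether the transcripts differed between the diets. Trpm6 was about 2.02-fold higher on the low diet and rose in 4 of 4 pairs. Its normalized log2 ratio of low over high diet was 1.03 in H1/L1, 0.97 in H7/L7, 1.31 in H3/L2 and 0.74 in H8/L8. The ratio was highest in H3/L2 and lowest in H8/L8, both with the high-diet sample in Cy5. The mean was 1.01 ± 0.23 (SD, n = 4), with a 95% confidence interval from 0.76 to 1.27 in limma's moderated fit over all probes (adjusted p = 0.0180). In the order of mean log2 ratios, Trpm6 stood at position 30 among the 39429 probes, and 0.0812% of probes had a mean of 1 or more.

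Trpm7 was 1.34-fold higher on the low diet, and its ratios lay above 0 in 4 of 4 pairs. They were 0.71 in H1/L1, 0.52 in H7/L7, 0.39 in H3/L2 and 0.05 in H8/L8. The last is close to no difference, and it is again the pair with the smallest Trpm6 ratio. The mean was 0.42 ± 0.28 (SD, n = 4), with a 95% confidence interval from 0.24 to 0.60 in the same fit (limma, adjusted p = 0.0440). Trpm7 stood at position 550 of all probes. Both probes passed the threshold of an adjusted p under 0.05, where 5.82% of all probes did in either direction, 3.48% as higher and 2.35% as lower on the low diet. A log2 ratio above 0 in all 4 pairs was seen at 13.1% of probes. The median log2 ratio of all probes was 0.00013.

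In the fit, the Trpm7 call was the less firm of the pair. It was lost with each of the 4 pairs left out in turn, with adjusted p between 0.0629 and 0.151, while the log2 ratio stayed between 0.33 and 0.50. The Trpm6 call was lost without H1/L1 (adjusted p = 0.0662) and without H7/L7 (adjusted p = 0.0560) and was kept without H3/L2 and without H8/L8, with log2 ratios from 0.87 to 1.15. Over 13 alternatives limma's adjusted p ran from 0.00579 to 0.0662 for Trpm6 and from 0.0242 to 0.151 for Trpm7.

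**Figure D2:**
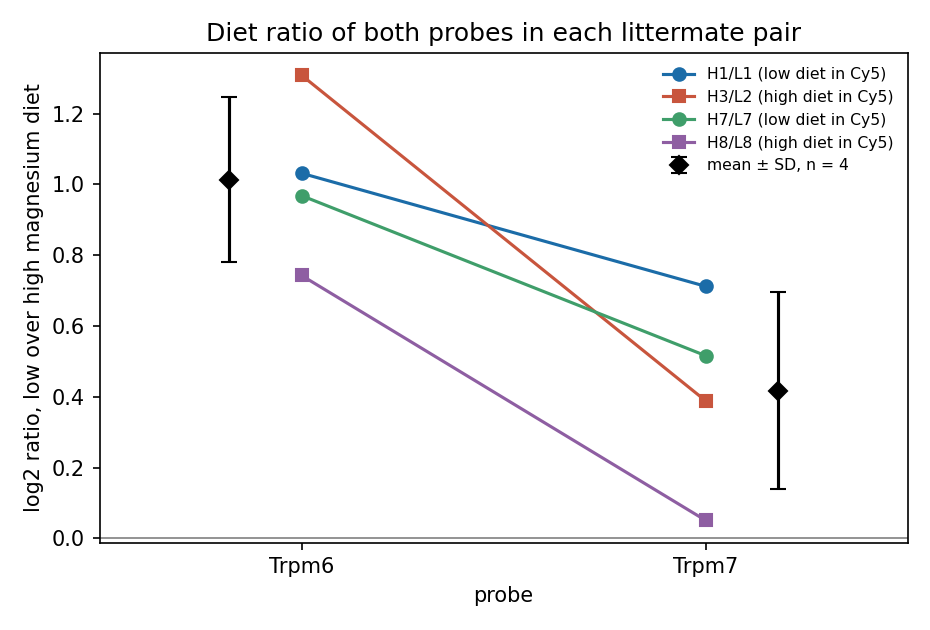
Normalized log2 ratio of low over high diet of the Trpm6 and the Trpm7 probe, with 1 line per littermate pair (circles, low diet in Cy5; squares, high diet in Cy5) and black diamonds for the mean ± SD (n = 4). All 8 points lie above 0, each line falls from Trpm6 to Trpm7, and H8/L8 has the lowest point of both probes.

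The arrays also give a level for each RNA sample on a log2 scale, after loess within arrays and scaling of brightness between arrays. Such single-sample levels are open to dye bias, and levels of the 2 probes cannot be set against each other. On the low diet the Trpm6 levels were 11.43 in sample L1, 11.37 in L7, 11.45 in L2 and 11.69 in L8. On the high diet they were 10.40 in H1, 10.41 in H7, 10.14 in H3 and 10.95 in H8. The lowest low-diet sample lay above the highest high-diet sample, and sample H8 stood above the other high-diet samples. The mean Trpm6 level was 11.49 ± 0.14 on the low and 10.47 ± 0.34 on the high diet (SD, n = 4).

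For Trpm7 the low-diet levels were 13.25, 13.44, 13.18 and 13.06 in the same order, and the high-diet levels were 12.54, 12.93, 12.79 and 13.01. The diets did not overlap here either, but the low-diet sample L8 and the high-diet sample H8 were nearly level. The means were 13.24 ± 0.16 and 12.82 ± 0.20 (SD, n = 4). All 4 low-diet levels stood above all 4 high-diet levels at 4.77% of all probes, and all below at 2.83%.

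**Figure D3:**
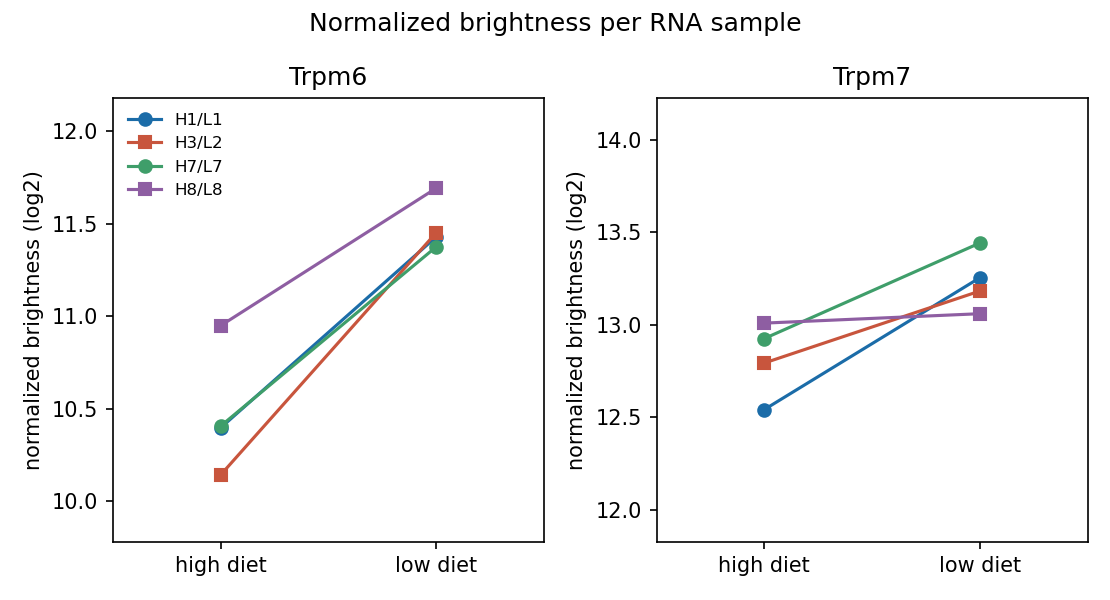
Normalized brightness on a log2 scale of the Trpm6 probe (left) and the Trpm7 probe (right) in each RNA sample, with lines joining littermates (circles, low diet in Cy5; squares, high diet in Cy5). Both panels span the same number of log2 units; Trpm6 rises in every pair, and the Trpm7 line of H8/L8 is almost flat, from 13.01 to 13.06.

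The next comparison set the paralogs against each other within each array, where both share the same RNA samples. The log2 ratio of Trpm6 exceeded that of Trpm7 by 0.32 in H1/L1, 0.45 in H7/L7, 0.92 in H3/L2 and 0.69 in H8/L8. Trpm6 thus had the larger ratio in 4 of 4 pairs, by a mean of 0.60 ± 0.27 (SD, n = 4), which is 1.51-fold. A 2-sided exact sign-flip permutation test over the pairs gave p = 0.125, the smallest value that 4 pairs allow, so this design cannot reach 0.05. The difference was 0.39 with the low diet in Cy5 and 0.81 with the high diet in Cy5. Under the alternatives tried it ran from 0.49 to 0.69 with a pair left out and from 0.58 to 0.64 otherwise. The values with a pair left out are plain means of the remaining pairs, not balanced for dye orientation. The ratios of each gene with a pair left out came from the fit with its dye term.

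The ratios were also set out by dye orientation. Mean Trpm6 ratios were 1.00 in the pairs with the low diet in Cy5 and 1.03 in those with the high diet in Cy5. The corresponding Trpm7 means were 0.61 and 0.22. In limma's fit the dye term was -0.013 for Trpm6 (adjusted p = 0.955) and 0.20 for Trpm7 (adjusted p = 0.275; unadjusted p = 0.0384). An unadjusted p under 0.05 for the dye term was found at 16.8% of probes, and an adjusted one at 0.00507%. A dye effect and a difference between the litters of the 2 orientations cannot be told apart. Without a dye term Trpm7 did not pass (adjusted p = 0.138), and Trpm6 did (adjusted p = 0.0190).

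Normalization changed the sign of single Trpm7 ratios and of 0 Trpm6 ratios. Before loess, the log2 ratios of Trpm6 were 1.94 in H1/L1, 1.40 in H7/L7, 0.45 in H3/L2 and 0.14 in H8/L8, all above 0. Those of Trpm7 were 1.65, 1.01, -0.64 and -0.65 in this order, with signs that followed the dye. Loess moved the Trpm7 ratio by -0.94, -0.49, 1.03 and 0.70, which in every pair but H7/L7 was more than the ratio left after it. When arrays were centred on their median in place of loess, Trpm7 had ratios of 1.23, 1.24, -0.30 and -0.66, and the direction thus differed between the 2 dye orientations. Its mean over both orientations was 0.38 under median centring, and Trpm6 had a mean of 1.02 and 4 of 4 ratios above 0.

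The authors' processed values, turned to low over high diet, gave Trpm6 ratios of 1.05, 1.03, 1.32 and 0.76 and Trpm7 ratios of 0.54, 0.40, 0.61 and 0.30 in the same order of pairs. The Trpm7 ratios were closer together there, with an SD of 0.14, and H8/L8 no longer lay near 0. In the authors' deposited table, whose direction of high over low diet was found by setting it against the turned ratios, the log2 ratio was -1.04 for Trpm6 with a p of 0.0306, and -0.46 for Trpm7 with a p of 0.494. A p under 0.05 was listed there for 287 probes, Trpm6 among them and Trpm7 not. No source used here says whether those p-values were adjusted, and 37011 of them were exactly 1.

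**Figure D4:**
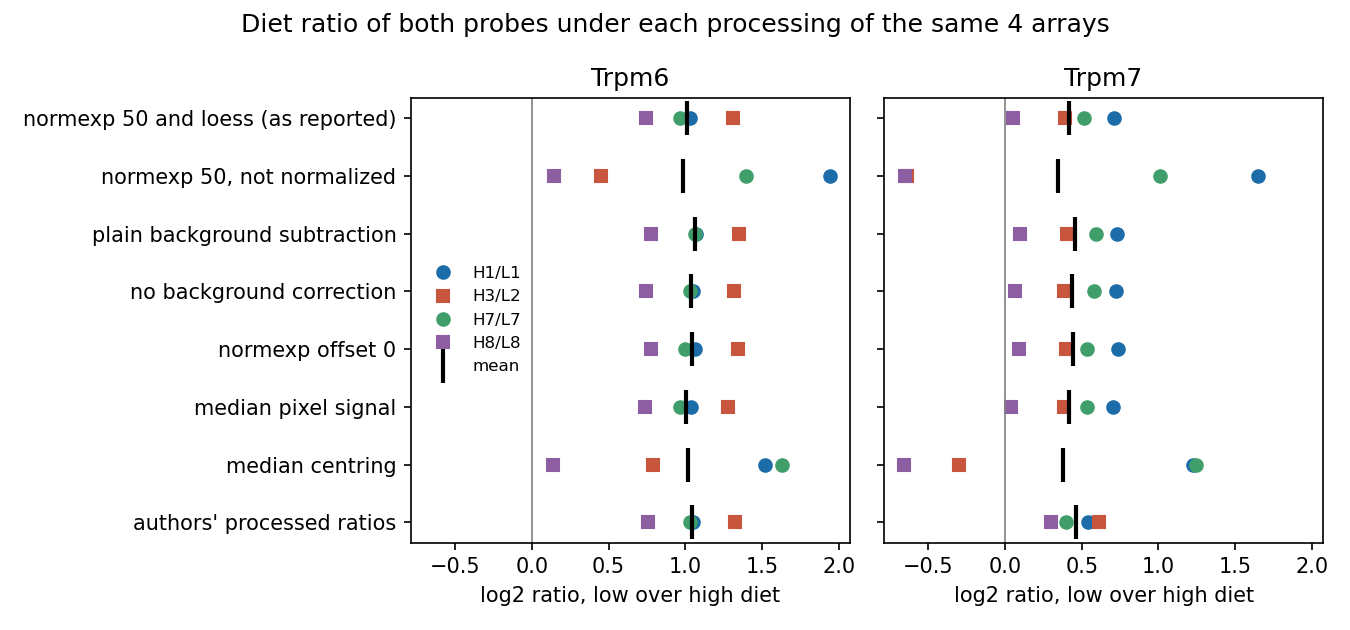
Log2 ratio of low over high diet of Trpm6 (left) and Trpm7 (right) under each processing of the same arrays, with 1 point per pair (circles, low diet in Cy5; squares, high diet in Cy5) and a black bar for the mean. The means stay near 1.01 for Trpm6 and between 0.34 and 0.46 for Trpm7, while the unnormalized and the median-centred Trpm7 points split by dye orientation to both sides of 0.

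The sorted tubules were checked against markers of the segment, and the ratios of the channels were set beside them. Slc12a3, the thiazide-sensitive cotransporter that defines the DCT, and Pvalb, whose promoter drives the reporter, were above background in 8 of 8 samples. So were Slc12a1 of the thick ascending limb, Slc34a1 and Lrp2 of the proximal tubule and Aqp2 of the collecting duct, which the labelled cell type should lack. Umod, listed here with the thick ascending limb, was too. As 25638 of the 39429 probes tested were above background in 8 of 8 samples, this alone says little about a segment. In bulk samples, a different number of cells of a type and a different amount of RNA per cell cannot be told apart.

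Slc12a3 had log2 ratios of 0.45 in H1/L1, 0.13 in H7/L7, 0.15 in H3/L2 and -0.21 in H8/L8, a mean of 0.13 ± 0.27 (SD, n = 4; limma, adjusted p = 0.467). Relative to Slc12a3 on the same array, Trpm6 was higher on the low diet by 0.58, 0.84, 1.16 and 0.95, with a mean of 0.88 ± 0.24 (SD, n = 4). Relative to Slc12a3, Trpm7 was higher by 0.26, 0.39, 0.24 and 0.26, with a mean of 0.29 ± 0.07. The Trpm7 ratio thus lay above the Slc12a3 ratio by 0.24 to 0.39 in every pair, and H8/L8 had the lowest value of both. The dimmer Slc12a3 probes, with mean ratios of -0.04 and -0.02, were not above background on all arrays. Calb1, the calcium-binding protein calbindin of the distal tubule, rose by 1.54 ± 0.41 (limma, adjusted p = 0.0149). The Pvalb ratios of 2.28, 2.56, 2.53 and 1.69 were larger than those of Trpm6 in every pair, and the smallest was again in H8/L8. Whether the diets differed in which tubules were sorted by the Pvalb reporter was not tested.

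Proximal tubule markers moved the other way on some arrays. Of 15 measured, 2 fell and 0 rose in limma, and their median log2 ratio was -0.51, against 0.0017 over all named genes. The median was -1.06 in H1/L1, -0.10 in H7/L7, -0.71 in H3/L2 and -0.11 in H8/L8. In H7/L7 and H8/L8, where it was nearest 0, Trpm6 had ratios of 0.97 and 0.74 and Trpm7 of 0.52 and 0.05. The part of tubule content in the ratios of the channels was not tested further. The scan signal of Slc34a1 ranged from 277 to 650 units on the low and from 274 to 976 on the high diet. Among 12 DCT markers 3 rose and 1 fell, among 10 of the thick ascending limb 3 rose and 1 fell, and among 12 of the collecting duct 0 rose and 1, Avpr2, passed as lower with 3 saturated readings. Over all named genes, 4.88% rose and 2.95% fell. The Avpr2 ratios were 0.49 in H1/L1, 0.63 in H7/L7, -1.28 in H3/L2 and -1.38 in H8/L8, so their sign followed the dye. Its dimmer probe, at 0.03, did not pass. The DCT markers that passed were Pvalb, Calb1, Wnk1 at 0.67 ± 0.48 and Sgk1 at -0.75 ± 0.45. Those of the thick ascending limb were Umod at 1.46 ± 0.25, Kcnj1 at 0.66 ± 0.57, Egf at 0.71 ± 0.68 and Ptger3 at -1.95 ± 0.35 (SD, n = 4). In the same order, Wnk1 had ratios of 1.25, 0.84, 0.43 and 0.15, and Kcnj1 of 0.97, 1.31, 0.23 and 0.13. Sgk1 had -1.29, -0.95, -0.49 and -0.28. Each lay further from 0 with the low diet in Cy5. The dimmer Wnk1 probes, at 0.11 and 0.06, did not pass. Those of Pvalb, Calb1 and Ptger3, at 1.41, 1.26 and -0.39, passed in the same direction as the brightest probe but with smaller ratios. The medians of the 12 DCT, 10 thick ascending limb and 12 collecting duct markers were 0.013, 0.067 and 0.0064. Among 12 measured markers of podocytes, vessels, stroma and blood, 0 passed in limma, 1 had an unadjusted p under 0.05, and the median was -0.031.

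The closest relatives of the channels did not pass. Trpm1, Trpm2, Trpm3, Trpm4, Trpm5 and Trpm8 encode the other TRPM cation channels. By their brightest probe 0 of these 6 passed in limma, and 1, Trpm1, had an unadjusted p under 0.05. Over all named genes 7.82% passed, so a count of 0 among so few genes says little. The Trpm1 ratio was 0.17 ± 0.10 (SD, n = 4; limma, adjusted p = 0.0531), and its 3 dimmer probes had mean ratios of -0.08, -0.04 and 0.0020. Trpm8 was at 0.07 ± 0.08, Trpm5 at 0.06 ± 0.06, Trpm3 at 0.01 ± 0.09, Trpm4 at -0.0013 ± 0.08 and Trpm2 at -0.05 ± 0.06. With a background offset of 0 in place of 50 (normexp), the SD of each of these relatives was larger. Trpm4 was then at -0.0076 ± 0.24, Trpm3 at 0.04 ± 0.20 and Trpm2 at -0.13 ± 0.15, and 0 of the list passed. The small ratios and SDs of dim probes thus depend on the offset. Read from the pixel medians, the Trpm1 probe passed with a ratio of 0.18 (adjusted p = 0.0386).

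Of the other genes with an alpha-kinase domain, 0 of 4 passed, and 0 had an unadjusted p under 0.05 in limma. This count too says little beside the 7.82% of all named genes that passed. Eef2k, the kinase of an elongation factor, stood at -0.06 ± 0.15, Alpk1 at -0.0024 ± 0.04, Alpk2 at 0.02 ± 0.05 and Alpk3 at -0.01 ± 0.02 (SD, n = 4). Their SDs were also larger with a background offset of 0, at 0.32 for Eef2k, 0.07 for Alpk1, 0.21 for Alpk2 and 0.06 for Alpk3. Some of these relatives were dim. Alpk2 was above background in 2 low-diet samples and 1 high-diet sample, Alpk3 in 2 low-diet and 4 high-diet samples, and Trpm2 and Trpm4 in 3 low-diet and 4 high-diet samples. The medians of these lists were 0.038 for the TRPM relatives and -0.0068 for the alpha-kinases.

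Of 19 measured regulators and partners of the channels, 3 rose and 1 fell by their brightest probe, where 7.82% of all named genes passed, 4.88% as higher and 2.95% as lower. Ptp4a1 and Ptp4a2 encode phosphatases that bind the CNNM magnesium proteins. Ptp4a1 had ratios of 0.80 in H1/L1, 0.99 in H7/L7, 0.94 in H3/L2 and 0.61 in H8/L8 and rose by 0.84 ± 0.17 (SD, n = 4; limma, adjusted p = 0.0149). Its 3 dimmer probes had ratios of 0.67, 0.17 and 0.15, the last not past the threshold. Ptp4a2 rose by 0.27 ± 0.10, and its dimmer probes, at 0.19 and -0.02, did not pass. The Ptp4a1 call was lost without H1/L1 (adjusted p = 0.0535) and without H7/L7 (adjusted p = 0.0514). The Ptp4a2 call was lost with each pair left out, with plain subtraction, with a normexp offset of 0 and without the dye term (limma, adjusted p from 0.0583 to 0.0946).

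Egf, the precursor of a hormone that raises TRPM6 activity in this segment, passed as higher, with ratios of 1.53, 1.02, 0.14 and 0.16 in the same order. Its spot was saturated in 1 sample, the low-diet one of H1/L1, so that ratio is a lower limit, and the ratios differed by dye orientation. Without the dye term Egf did not pass (adjusted p = 0.257), and over the alternatives its adjusted p ran from 0.00539 to that value. The authors' processed ratios of Egf, in the same order of pairs, were 1.03, 0.58, 0.75 and 0.79, without that split, and passed in limma (adjusted p = 0.0163). Its receptor gene Egfr had a ratio of 0.01 ± 0.06 (SD, n = 4; limma, adjusted p = 0.938). Rac1, a small GTPase through which EGF brings TRPM6 to the membrane, passed as lower by its brightest probe, at -0.26 ± 0.08 (adjusted p = 0.0340). A second Rac1 probe passed as higher, at 0.26 ± 0.28 (adjusted p = 0.0252), so the direction of Rac1 is not settled. The median of the list was 0.0074.

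Of 30 measured genes of magnesium transport and inherited magnesium loss, 7 rose and 1 fell, and the median was 0.013. Over all named genes, 4.88% rose and 2.95% fell. Among the 7 were Pvalb, whose promoter drives the reporter, and Umod, both of which were also counted with the segment markers above. Umod, Pcbd1 and Slc41a3 were taken further by the study on these samples, so their direction is not independent evidence. Slc41a3, of the SLC41 family of magnesium transporters, had a ratio of 0.84 ± 0.16, close to that of Trpm6, and Pcbd1, a cofactor of HNF1 transcription factors, of 1.08 ± 0.24. Umod, which encodes uromodulin, rose by 1.46 ± 0.25 and Pvalb by 2.27 ± 0.40 (SD, n = 4). Cnnm2, in which human mutations cause renal magnesium loss, passed at 0.71 ± 0.27 (limma, adjusted p = 0.0389). Its call was lost with each of the 4 pairs left out, with plain subtraction and with a normexp offset of 0 (adjusted p from 0.0513 to 0.0955). Mmgt2, a membrane magnesium transporter, passed at 0.32 ± 0.11 and Nipa2, of another magnesium transporter family, at 0.16 ± 0.17, the latter with 3 of 4 pairs above 0. Both calls were lost with plain subtraction, a normexp offset of 0, the authors' ratios, no dye term and each pair left out. There limma's adjusted p was 0.0505 to 0.106 for Mmgt2 and 0.0519 to 0.332 for Nipa2. The Nipa2 call was also lost with dim probes left out and with median centring, and its ratio was 0.30 with the low diet in Cy5 and 0.02 with the high diet in Cy5. Without H1/L1, 1 gene of this list passed. Casr, the calcium-sensing receptor, fell in 4 of 4 pairs, with a log2 ratio of -0.75 ± 0.28. In the list, 22 genes did not pass.

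**Figure D5:**
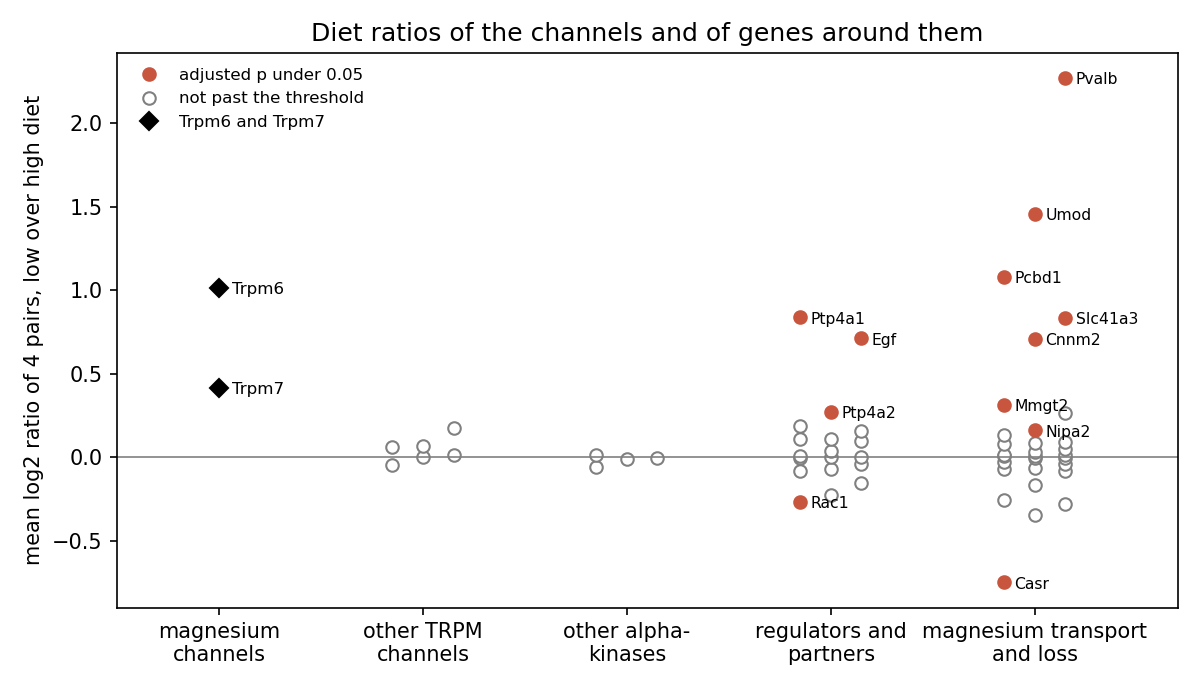
Mean log2 ratio over 4 pairs, low over high diet, of Trpm6 and Trpm7 (black diamonds) and of the measured genes of 4 lists by their brightest probe (filled, limma's adjusted p under 0.05; open, not past the threshold). The 6 other TRPM channels and the 4 other alpha-kinases lie between -0.06 and 0.17, and 4 of them (Trpm2, Trpm4, Alpk2, Alpk3) were not above background in every sample; the filled Rac1 point is contradicted by a second probe, and the Egf mean includes a saturated spot.

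The genes whose 4 ratios were most like those of a channel were found by the root mean square difference over the pairs, among 16082 genes above background in all 8 samples. Nearest to Trpm6 were Tbc1d4, a regulator of membrane traffic, at a difference of 0.11 log2 units, Gsn, the actin-severing protein gelsolin, at 0.15, and Abcg1, a cholesterol exporter, at 0.16. Defb1, a beta-defensin, and Gpm6b, a membrane glycoprotein, followed at 0.16 and 0.17. Nearest to Trpm7 were Khdrbs3, an RNA-binding protein, at 0.048, the cell cycle kinase Wee1 at 0.071, the transcription activator Camta1 at 0.075, Mat2b at 0.082 and Ttf2 at 0.083. The paralogs were 0.64 apart, and 353 of the 16082 genes were nearer to Trpm6 than Trpm7 was, while 13933 were nearer to Trpm7 than Trpm6 was. These counts follow the size of the ratios and do not show shared behaviour. The median of all probes was 0.00013, and the Trpm7 mean of 0.42 lay nearer to it than the Trpm6 mean of 1.01. The 4 ratios share their arrays and dyes, so this is a description with no test. With the authors' processed ratios, 2 of the 5 genes were the same for Trpm6, namely Abcg1 and Tbc1d4, and 2 of the 5 for Trpm7, namely Khdrbs3 and Camta1.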

How the data were processed

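Per the file headers, each deposited scan lists, for every spot, linear intensities of signal and local background as pixel means and medians. Cy5 was channel 1, per the labels. Scanner, spot-finding software and genome build are not stated in the sources used. The authors' processed values were deposited as a log2 ratio of channel 1 over channel 2 with unstated normalization. Their direction was found from the scans (r between 0.725 and 0.827 over brighter spots), and the column medians were 0.0041 (H1/L1), -0.0035 (H7/L7), -0.0038 (H3/L2) and 0.0047 (H8/L8). The authors also deposited a mean log2 ratio with a p-value for each probe, from maanova per the file headers, which correlated at r = -1 with the mean turned ratio.

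Here the mean signal was corrected with normexp (offset 50), log2 ratios were loess-normalized within arrays (weight 0 for 5791 control spots) and turned to low over high diet, and limma 3.58.1 in R 4.3.3 was fitted to all 39429 probes with terms for diet and dye (eBayes, 2 residual and 2.68 prior degrees of freedom, 2-sided, Benjamini-Hochberg). The SD of a gene is over its 4 turned ratios. Levels per sample used Aquantile scaling. A channel was above background where its signal minus background passed that of 99% of the 604 spots of a dim control, and saturated at a pixel median of 65000. Between 65.5% and 97.4% of probes were above background in a sample. List genes were represented by their brightest probe, after 2622 older symbols had been updated through RefSeq. Named were both channels, every TRPM and alpha-kinase relative, every gene of 2 further lists past the threshold, and the 5 genes most like each channel. The members and lists were chosen with earlier results of these data known. With the dye term, limma's p-values and intervals measure the spread between pairs of the same dye orientation, moderated by all probes. The difference between the orientations goes into the dye term. For Trpm7 the standard error of this fit was 0.069, where the SD over the 4 pairs was 0.28. The alternatives tried were other background corrections, signal statistics, normalizations, the authors' ratios, a filter on dim probes, no dye term, and leaving out each pair. The fit was also run on simulated data, whose outcome is not given here and is not used as support.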

Additional observations from a re-analysis of the deposited data

How the results depend on the processing

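The log2 ratios of Trpm6 and Trpm7 kept their sign under all 15 alternatives. Trpm7 fell short of the threshold with plain background subtraction (0.46), with a normexp offset of 0 (0.44) and without the dye term (0.42), so that 1 of the 2 channel probes passed in each. With a pair left out, Trpm6 lay between 0.87 and 1.15 and Trpm7 between 0.33 and 0.50, with 0 to 1 of the 2 passing; such a fit has 1 residual degree of freedom. Without H1/L1 or H7/L7 0 passed, and without H3/L2 or H8/L8 Trpm6 alone. The dye term rose to 0.56 for Trpm6, with the opposite sign, and 0.86 for Trpm7 under median centring, which leaves the brightness-dependent part of the dye in the ratios. The count over all probes, 2296 (1371 higher, 925 lower), was 279 with plain subtraction (204 higher, 75 lower), 704 with a normexp offset of 0 (493 higher, 211 lower), 824 without the dye term, 3207 without background correction (1794 higher, 1413 lower), 3232 with the authors' ratios (1785 higher, 1447 lower) and between 83 and 863 with a pair left out. Calls among the regulators went from 4 to 1, 2 and 2 under these first 3 settings and to 0 to 2 with a pair left out. Calls among the magnesium genes went from 8 to 5 with plain subtraction and 5 with a normexp offset of 0, and to 1 to 6 with a pair left out. With pixel medians 1 of the TRPM relatives passed. The cause was not tested. The other 23 genes named from the lists gave 341 values, of which 50 lost the threshold and 1, that of Trpm1, gained it. The remaining 290 include the values from the arrays of a single dye orientation. Those have no adjusted p and so no side of the threshold to keep. They also include genes that did not pass in the main fit. The mean over probes could not differ, since each channel has 1 probe, and a slide or scan block was not run, since the files give neither.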
